A study of Mus musculus with 160 samples.

Results

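Collagen genes were the 44 protein-coding genes with a mouse symbol of the form Col, digits, a, digits and at least 10 counts over all samples, out of 39179 genes counted in the distal colon of 160 mice. All 44 genes that matched the symbol also met the count minimum. They were sorted by the structure their proteins form into 11 fibrillar, 6 basement-membrane, 6 beaded-filament, 9 fibril-associated, 3 short-chain network, 1 anchoring-fibril, 2 multiplexin, 4 transmembrane and 2 unclassified collagens.

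Each collagen molecule is built from alpha chains that wind around each other into a rope-like helix, and most are secreted. Fibrillar collagens such as types I and III form the cables of the submucosa and of scars, type IV collagen forms the sheet under epithelium and around muscle and vessels, and type VI forms beaded filaments that tie cells to both. In the gut wall the fibrillar chains come mainly from fibroblasts and smooth muscle, and they are known to increase when mucosa heals after injury.

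The mice came from 4 knockout lines, each named after the deleted gene: Nckap1l (labelled HEM1), Dock2, Gpsm3 and Dok3, genes known for roles in leukocyte movement or signalling. The study exposed mice of these lines to dextran sulfate sodium (DSS), which injures the colonic epithelium, and sequenced ribosome-depleted colon RNA. Every line held homozygous knockouts and wild-type littermates from crosses of heterozygous parents, re-derived at a breeder with C57BL6/J females. Which mice had received DSS was not in the labels, so DSS-treated and untreated mice were not separated.

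The Nckap1l line held 15 wild types (7 male, 8 female) and 16 knockouts (12 male, 4 female), strain C57BL6/J, with tissue taken on day 12 after 5 days of DSS and 7 days of water. The labels give no DSS percentage for it, and the study's text gives one below those of the other lines. The Dock2 line held 24 wild types (12 of each sex) and 18 knockouts (10 male, 8 female), C57BL6/J, 3% DSS, tissue on day 10 after 5 days of DSS and 5 days of water. The Gpsm3 line held 20 wild types and 20 knockouts, all labelled male, C57BL6/J, with the DSS schedule of the Dock2 line. The Dok3 line held 21 wild types and 26 knockouts, all labelled male, strain 129, labelled 3.5% DSS, tissue on day 10. The study's text says that a first round with this line used 3%, and rounds were not separated here. All were young adults.

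The libraries held 4344988 to 19993833 counts (median 15989625). The targeted genes were still counted in the knockouts, with median levels in wild types and knockouts of 27.6 and 14.8 CPM of the total (CPM is the count scaled to a library of 1e6 counts) for Nckap1l, 35.7 and 22.4 for Dock2, 3.15 and 0.557 for Gpsm3 and 3.67 and 3.30 for Dok3, and in every line the lowest wild type lay below the highest knockout. In the Dok3 line 5 samples labelled male (2 wild types, 3 knockouts) had sex markers that differed from the label. Keratinocyte genes of the skin stood apart in 32 samples. Their score, the mean log2 CPM of 8 markers, was at least 6.09 there and at most 2.54 in the other 128 samples. These 32 samples, called samples with skin RNA below, were 8 wild types and 7 knockouts of the Nckap1l line, 4 and 1 of the Dock2 line, 1 and 2 of the Gpsm3 line and 5 and 4 of the Dok3 line. Values without them are given beside the results that they changed most.

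To place the members, the promoters of collagens that the results turn on are printed here, from the RefSeq promoter table of GRCm38.p6, as 300 bases from 250 before to 50 after the start used in that table. For Col1a2, Col18a1 and Col8a2 that start is not the one in the annotation that named the genes. The table matched 35 of the 44 collagens. Capitals mark the word GGGCGG, the word CCAAT and the word TATAAA, each searched on both strands. Col4a1 and Col4a2, chains of the same basement-membrane molecule, are shown because they lie head to head and moved together, Col3a1 and Col1a2 as leading fibrillar chains, Col18a1 as the collagen that rose most steadily with neutrophil transcripts, and Col8a2 as the one that fell.

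Col4a1, chr8:11312777-11313076, minus strand: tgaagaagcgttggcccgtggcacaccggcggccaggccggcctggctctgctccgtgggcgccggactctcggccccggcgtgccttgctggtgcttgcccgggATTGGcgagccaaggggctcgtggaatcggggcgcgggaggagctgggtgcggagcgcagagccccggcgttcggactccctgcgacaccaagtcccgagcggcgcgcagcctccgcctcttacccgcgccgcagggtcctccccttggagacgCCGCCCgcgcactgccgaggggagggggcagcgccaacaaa

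Col4a2, chr8:11312555-11312854, plus strand: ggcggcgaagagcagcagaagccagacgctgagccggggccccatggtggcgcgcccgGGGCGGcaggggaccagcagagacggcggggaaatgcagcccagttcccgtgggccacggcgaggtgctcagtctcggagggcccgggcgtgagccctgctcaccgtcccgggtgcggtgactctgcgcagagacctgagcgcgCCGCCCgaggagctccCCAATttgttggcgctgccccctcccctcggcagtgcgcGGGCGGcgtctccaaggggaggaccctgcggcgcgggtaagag

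Col3a1, chr1:45311288-45311587, plus strand: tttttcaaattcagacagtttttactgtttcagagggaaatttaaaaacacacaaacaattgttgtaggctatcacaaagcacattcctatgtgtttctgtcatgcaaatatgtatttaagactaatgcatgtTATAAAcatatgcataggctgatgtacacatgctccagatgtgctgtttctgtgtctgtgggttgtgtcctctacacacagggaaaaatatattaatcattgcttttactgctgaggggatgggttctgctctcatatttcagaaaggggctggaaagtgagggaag

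Col1a2, chr6:4505368-4505667, plus strand: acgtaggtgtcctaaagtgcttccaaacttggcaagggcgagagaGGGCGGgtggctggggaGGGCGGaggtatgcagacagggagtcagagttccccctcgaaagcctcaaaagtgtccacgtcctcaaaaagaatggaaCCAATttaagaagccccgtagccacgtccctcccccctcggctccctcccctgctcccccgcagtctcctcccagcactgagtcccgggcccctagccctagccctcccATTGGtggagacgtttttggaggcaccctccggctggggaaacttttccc

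Col18a1, chr10:77166481-77166780, minus strand: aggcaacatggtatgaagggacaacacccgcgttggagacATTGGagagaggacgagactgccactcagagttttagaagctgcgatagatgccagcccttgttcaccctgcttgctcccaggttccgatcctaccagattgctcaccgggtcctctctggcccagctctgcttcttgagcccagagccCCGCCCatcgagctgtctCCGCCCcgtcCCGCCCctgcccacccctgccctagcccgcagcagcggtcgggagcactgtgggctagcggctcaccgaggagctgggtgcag

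Col8a2, chr4:126286544-126286843, plus strand: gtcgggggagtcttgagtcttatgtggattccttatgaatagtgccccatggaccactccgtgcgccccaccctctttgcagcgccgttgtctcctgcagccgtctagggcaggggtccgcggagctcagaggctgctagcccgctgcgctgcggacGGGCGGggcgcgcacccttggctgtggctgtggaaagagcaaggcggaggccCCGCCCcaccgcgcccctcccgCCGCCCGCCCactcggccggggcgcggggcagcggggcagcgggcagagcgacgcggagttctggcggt

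GGGCGG was found in 22 of the 35 collagen promoters (62.9%) and in 35.7% of all 32851 promoters in the table. CCAAT was found in 12 collagens (34.3%) and in 37.4% of all promoters, and TATAAA in 5 collagens (14.3%) and in 13.6% of all. The windows of Col4a1 and Col4a2 share 78 bases, because the annotated genes overlap by 22 bases at their starts on chromosome 8. Col3a1 held 1 TATAAA and neither of the other words. Col8a2 held 4 matches to GGGCGG, and Col18a1 held 3 and 1 match to CCAAT. These are matches of letters and nothing about binding was measured.

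Levels were compared between genes as CPM per kilobase of exon, from CPM scaled by the trimmed mean of M values (TMM). Over the 160 samples, 15 collagens had a median of at least 10 CPM per kilobase, 10 lay from 1 to under 10, 13 from 0.1 to under 1, and 6 under 0.1.

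**Figure D1:**
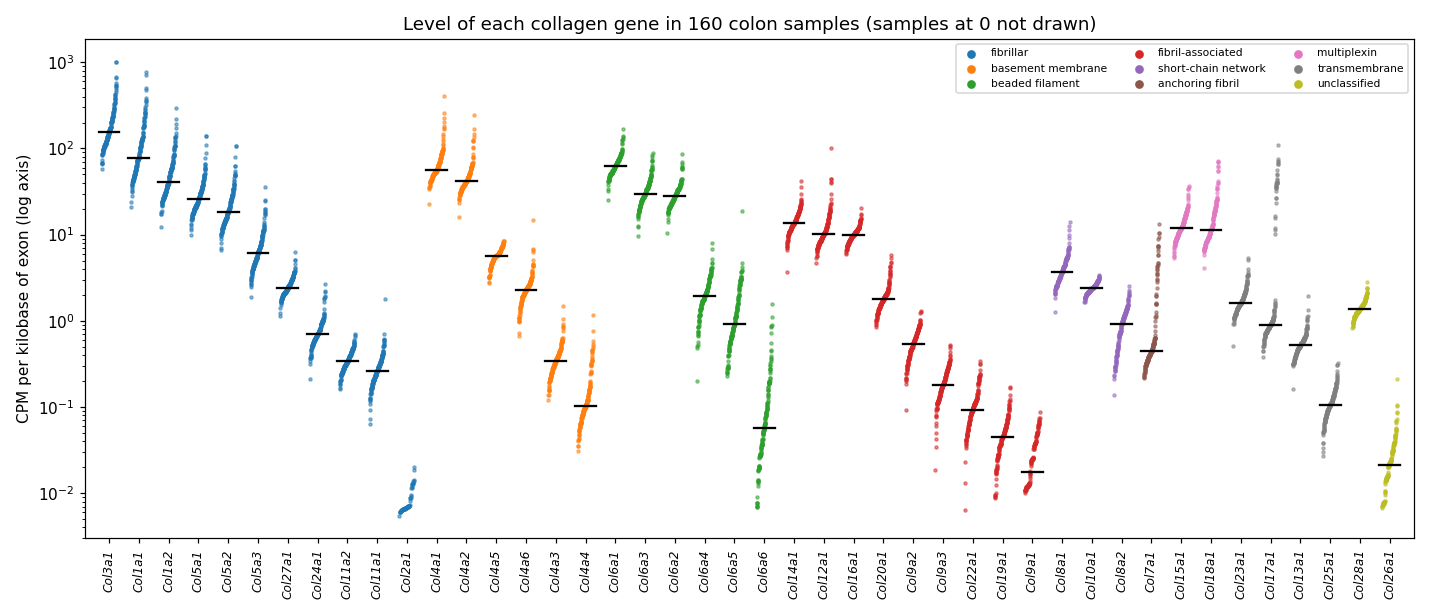
Level of the 44 collagens in CPM per kilobase of exon (log axis), coloured by class, with 1 point per sample above 0, sorted within a gene, and a bar at the median where it is above 0. Col3a1 has the highest median (154.5 CPM per kilobase), and Col17a1 falls into a low and a high set of samples.

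Among fibrillar collagens, Col3a1, the chain of type III collagen in the reticular fibres of gut and vessel walls, had the highest level of all members, with a median of 154.5 and a range of 57.3 to 1019 CPM per kilobase. Col1a1 and Col1a2, the chains of type I collagen, followed at medians of 77.9 and 41.1. These genes together took a median of 48.3% of the CPM on collagens (range 35.7% to 67.6%). Col5a1 and Col5a2, the chains of type V collagen that help to set fibril width, had medians of 25.7 and 18.5. At the other end Col2a1, the main collagen of cartilage, had 79 counts in all and 0 counts in 94 of 160 samples.

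In the basement-membrane class, Col4a1 and Col4a2, the chains found in nearly every basement membrane, had medians of 56.1 and 41.9 CPM per kilobase. Col4a5, a chain also used around smooth muscle, came next at 5.69, ahead of Col4a6 at 2.30. Col4a3 and Col4a4, known from the kidney filter, had 0.343 and 0.102.

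Of the beaded filaments, Col6a1, Col6a3 and Col6a2, the chains of the common type VI molecule, had medians of 63.3, 29.7 and 27.9 CPM per kilobase, and the alternative chains Col6a4, Col6a5 and Col6a6 had 1.96, 0.922 and 0.057. The leading fibril-associated collagens, which coat fibrils, were Col14a1 at 13.6, Col12a1 at 10.2 and Col16a1 at 10.0. The multiplexins Col15a1 and Col18a1, which carry sugar side chains and sit in basement membranes, had 11.9 and 11.3.

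Col8a1, a network former of vessel walls, had a median of 3.72, Col10a1, known from growth-plate cartilage, 2.39, and Col8a2 0.914. Among transmembrane collagens Col23a1 had 1.60, Col17a1, a part of the hemidesmosomes that anchor epithelial cells, 0.901, and Col13a1 0.528. Col7a1, the anchoring fibril under stratified epithelium, had 0.442. The unclassified Col28a1 and Col26a1 had 1.38 and 0.0214. Besides Col2a1, 4 collagens had samples at 0 counts, namely Col9a1 in 33 samples, Col26a1 in 16, Col19a1 in 3 and Col6a6 in 1, and the other 39 were counted in every sample.

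All collagens together held a median of 0.534% of the counts, from 0.206% to 2.90%. Fibrillar collagens made up a median of 57.3% of collagen CPM, beaded filaments 16.8% and basement-membrane collagens 14.7%. The ratio of fibrillar to basement-membrane CPM had a median of 3.96 and ran from 2.36 to 9.82. By group its median lay between 3.46 in Gpsm3 wild types and 4.31 in Nckap1l wild types.

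Spread between mice of a line differed by gene. The SD of log2 CPM within lines was smallest for Col10a1 (0.21) and Col16a1 (0.30) among the 39 collagens counted in every sample, and it was 0.40 for Col6a1, 0.58 for Col4a1, 0.79 for Col3a1 and 0.99 for Col1a1. Col17a1 (2.09) and Col7a1 (1.35) had the largest SD of all 44.

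In the 32 samples with skin RNA, Col17a1 had a lowest, median and highest level of 61.2, 236.3 and 664.0 CPM, against 2.29, 5.18 and 10.5 CPM in the 128 others, and these sets did not overlap. Col7a1 had 12.0, 43.9 and 137.7 CPM against 2.26, 4.20 and 19.96 CPM, with a small overlap. Col4a4 had a median of 3.64 CPM with and 0.998 CPM without skin RNA, and Col4a3 5.69 and 3.13 CPM. All 8 skin markers had counts in both sets, and their summed level ran from 894 to 13524 CPM with and from 4.23 to 63.1 CPM without skin RNA. Col1a1 had medians of 1019 and 484.4 CPM, with ranges that overlapped, although in the Gpsm3 line all 3 samples with skin RNA (1533 to 1843 CPM) lay above the other 37 (at most 1489 CPM).

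**Figure D2:**
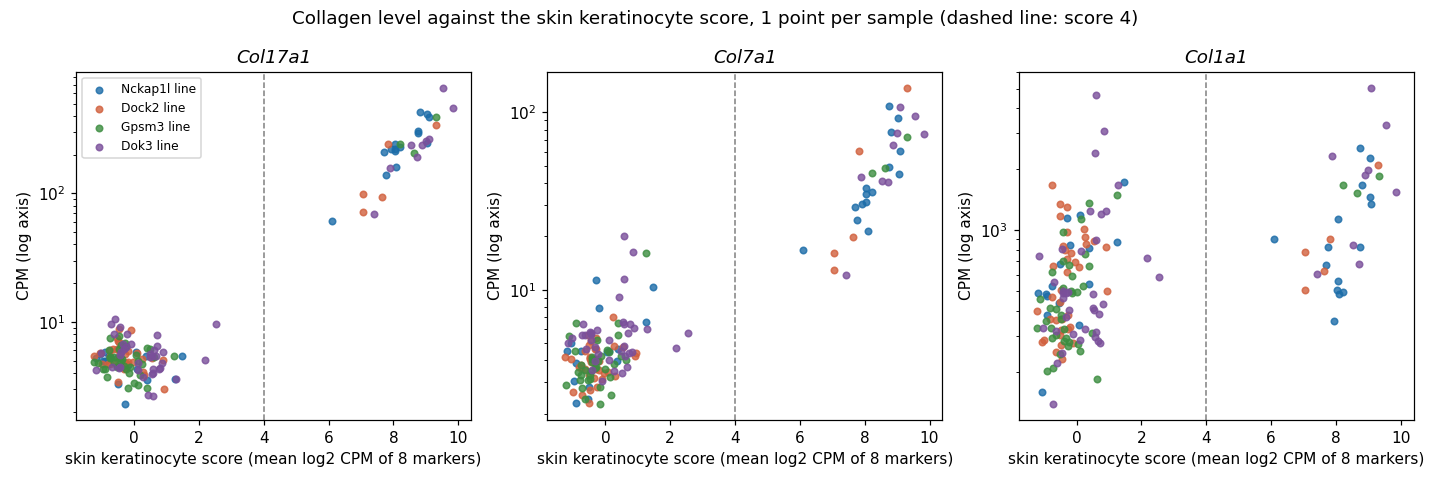
Level of Col17a1, Col7a1 and Col1a1 in CPM (log axis) against the skin keratinocyte score (mean log2 CPM of 8 markers), with 1 point per sample, coloured by line and a dashed line at a score of 4. Samples right of the line are the 32 with skin RNA; Col17a1 is above 61 CPM in all of them.

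The first comparison asks whether loss of each gene changed the collagens. Each line was tested alone with edgeR's quasi-likelihood test on counts, with sex as a term where both sexes were present, and adjusted by Benjamini-Hochberg over all genes tested. No collagen passed an adjusted p of 0.05 in any of the 4 lines. In bulk tissue, fewer cells of a type and less RNA per cell cannot be told apart.

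In the Nckap1l line, 0 of the 41 collagens tested were called, as were 0.00526% of the 19009 genes tested, and the unadjusted p was under 0.05 for 5 of them, against 4.61% of all genes. The median log2 difference between knockout and wild type was 0.065 over the collagens and 0.007 over all genes. Of the 40 tested in the Dock2 line 0 were called (0.0333% of all genes) and 2 had an unadjusted p under 0.05 (5.26% of all genes). Of the 38 tested in the Gpsm3 line 0 were called (0.00569% of all genes) and 1 had an unadjusted p under 0.05 (4.83%). Of the 40 tested in the Dok3 line 0 were called (0% of all genes) and none had an unadjusted p under 0.05 (2.19%). DESeq2 and limma-voom also called 0 collagens in these lines, except that DESeq2 called Col6a5 in the Nckap1l line.

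Col3a1 had a lowest, median and highest level of 1094, 1589 and 6711 CPM in Nckap1l wild types and of 563, 1726 and 5713 CPM in Nckap1l knockouts. The Dock2 line had 860, 1624 and 2929 CPM in wild types and 941, 1705 and 3718 CPM in knockouts. In the Gpsm3 line the values were 663, 1330 and 4158 CPM in wild types and 658, 1439 and 4920 CPM in knockouts, and in the Dok3 line 947, 1478 and 6477 CPM and 643, 1567 and 10001 CPM. Wild types and knockouts overlapped over most of their range in each line. The widest groups were those of the Dok3 line.

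Col1a1 had medians of 813 and 610 CPM in Nckap1l wild types and knockouts, 646 and 563 CPM in the Dock2 line, 410 and 439 CPM in the Gpsm3 line and 586 and 492 CPM in the Dok3 line. Its fitted log2 differences, knockout minus wild type, were 0.28, 0.14, 0.16 and -0.16, so in the Nckap1l and Dock2 lines the fitted direction differed from that of the medians. Col4a1 medians lay between 368 CPM in Gpsm3 wild types and 476 CPM in Dock2 wild types, with fitted log2 differences of 0.03, 0.01, 0.05 and -0.06.

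**Figure D3:**
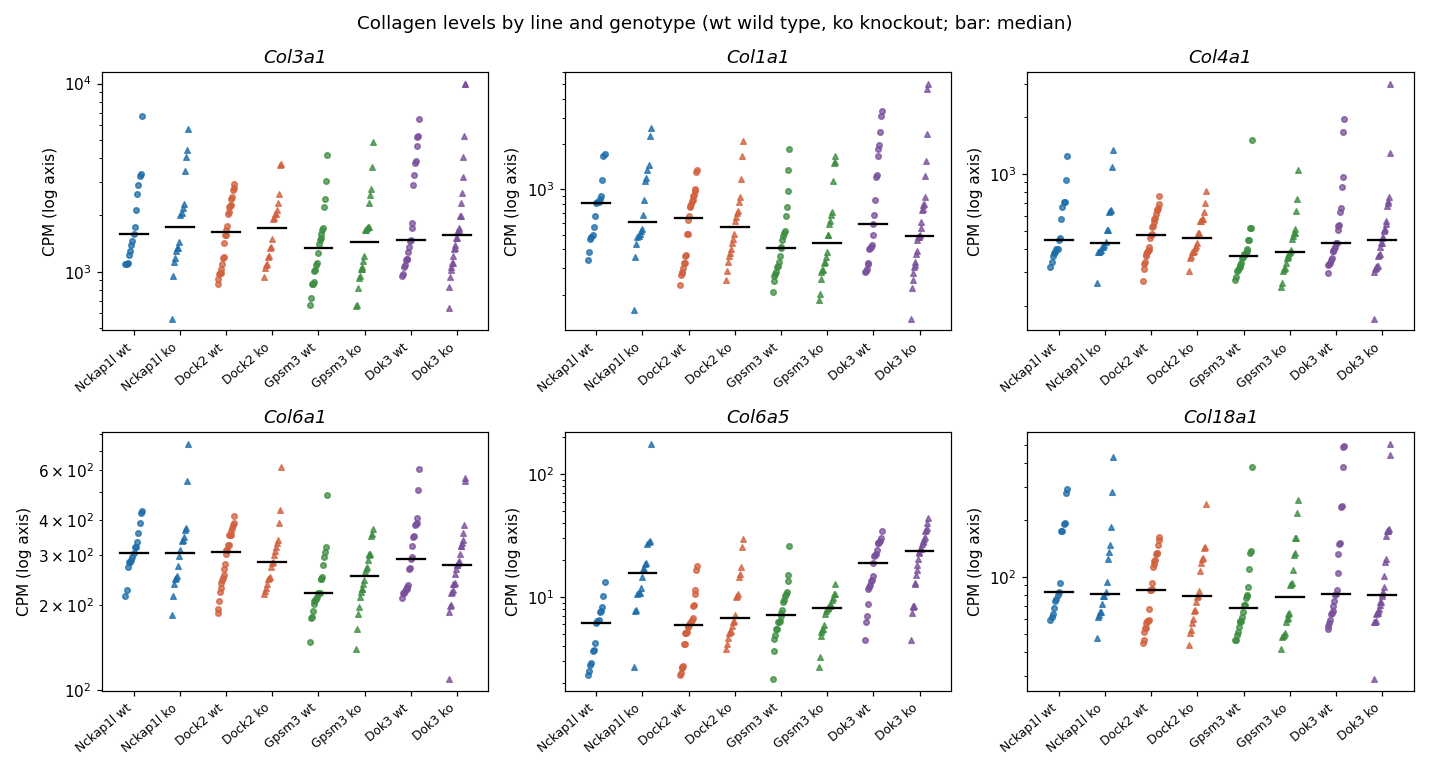
Level of Col3a1, Col1a1, Col4a1, Col6a1, Col6a5 and Col18a1 in CPM (log axis) in the 8 groups, with 1 point per sample (circles wild type, triangles knockout) and a bar at the median. Wild types and knockouts overlap for every gene; Col6a5 is highest in the Dok3 line and in Nckap1l knockouts, where 1 sample reaches 177.1 CPM.

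The smallest p among collagens in the Nckap1l line belonged to Col6a5, a chain that can replace Col6a3 in type VI collagen. It had a lowest, median and highest level of 2.31, 6.17 and 13.1 CPM in the 15 wild types and of 2.70, 15.7 and 177.1 CPM in the 16 knockouts. The log2 difference was 2.07 (SE 0.43, approximate 95% interval 1.23 to 2.92), with an adjusted p of 0.144. The size rested in part on 1 knockout at 177.1 CPM: without it the log2 difference was 1.24 with an adjusted p of 0.371. It was 1.17 in males and 3.53 in females, and 0.93 without the samples with skin RNA. The knockout at 177.1 CPM was female, and the line held only 4 female knockouts, so the value in females includes it.

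The adjusted p of Col6a5 in the Nckap1l line fell under 0.05 with DESeq2 (0.00169), with either other filter on low counts (0.0380 and 0.0390), with the smooth muscle score as a covariate (0.0261) and with the skin score as a covariate (0.0457). Sample numbers of this line fall into 3 runs. In the first run the 6 knockouts had 10.8 to 177.1 CPM and the 8 wild types 2.31 to 8.27 CPM, with no overlap. All 6 of these knockouts and 7 of these 8 wild types held skin RNA, and 3 of the knockouts and 6 of the wild types were female. In the second run 5 knockouts had 2.70 to 16.9 CPM and 4 wild types 6.53 to 10.2 CPM, and in the last run 5 knockouts had 10.9 to 28.5 CPM and 3 wild types 6.17 to 13.1 CPM, both with overlap. With the run as a covariate the log2 difference was 2.07 with an adjusted p of 0.252.

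Next in p in the Nckap1l line were Col6a6, at a log2 difference of 1.52 (SE 0.50, adjusted p = 0.816), and Col13a1, a membrane collagen of nerve-muscle contacts, at 0.34 (SE 0.14, adjusted p = 0.984). Leaving out samples with skin RNA gave 0.16 and 0.15, and without the knockout at 177.1 CPM of Col6a5 that of Col6a6 was 0.87. For Dock2 the smallest p values were those of Col6a5, at 0.48 (SE 0.22, adjusted p = 0.904), Col24a1, a minor fibrillar chain, at 0.32 (SE 0.15, adjusted p = 0.938), and Col6a6, at 0.87 (SE 0.46, adjusted p = 0.980). In the Gpsm3 line they were those of Col9a3, at 0.55 (SE 0.18), Col11a2, at 0.15 (SE 0.13), and Col15a1, at 0.15 (SE 0.14), with adjusted p of 0.931, 0.931 and 0.934. In the Dok3 line they were those of Col6a6, at -0.86 (SE 0.43), Col25a1, at 0.32 (SE 0.19), and Col4a6, at -0.22 (SE 0.14), each with an adjusted p of 0.999, and that of Col6a6 was -0.43 without samples with skin RNA. None of these differences passed the test. For Col1a1 the approximate 95% interval of the log2 difference ran from -0.34 to 0.89 in the Nckap1l line and from -0.91 to 0.60 in the Dok3 line.

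None of 50 collagen partners, the enzymes, chaperones, receptors and growth factors listed for collagen synthesis and binding, passed the test in any of the 4 knockout comparisons. In each line 49 of them were tested with edgeR, and the unadjusted p was under 0.05 for 2 of them in the Nckap1l line (4.61% of all genes) and 2 in the Dok3 line (2.19%), and for 0 in the Dock2 (5.26%) and Gpsm3 (4.83%) lines.

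The Dock2 and Nckap1l lines held both sexes. All males of the Dock2 line carry lower sample numbers than nearly all of its females. Sex and the order of sample numbers thus cannot be told apart there. In the Dock2 line, 6 of the 40 collagens tested were higher in females and 1 was lower, against 4.20% of all 18006 genes higher and 5.58% lower. The median log2 difference, female minus male, was 0.18 over the collagens and -0.002 over all genes.

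Col16a1, which links fibrils to other matrix, had a lowest, median and highest level of 68.8, 79.3 and 104.2 CPM in the 20 females and of 41.6, 65.5 and 77.2 CPM in the 22 males, with a log2 difference of 0.37 (SE 0.06, adjusted p = 4.23e-05). The highest male lay below the female median. Col20a1, another fibril-associated collagen, had 8.32, 10.2 and 12.3 CPM in females and 4.41, 7.36 and 11.2 CPM in males (log2 difference 0.49, SE 0.09, adjusted p = 3.00e-04). The fibrillar Col5a3, a further chain of type V collagen, had 36.4, 51.9 and 122.2 CPM in females and 19.5, 39.6 and 64.3 CPM in males (log2 difference 0.53, SE 0.13, adjusted p = 0.00951).

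The other collagens higher in females were Col23a1 (log2 difference 0.26, SE 0.07, adjusted p = 0.0169), Col9a2 (0.50, SE 0.15, adjusted p = 0.0317) and Col4a5 (0.23, SE 0.08, adjusted p = 0.0436). Col6a5 was the one that was lower, with 2.42, 5.26 and 7.17 CPM in females and 2.33, 10.1 and 29.6 CPM in males (log2 difference -1.02, SE 0.22, adjusted p = 0.00277). For Col6a5 the male median lay above the highest female, and the lowest male lay below the lowest female. The leading collagens did not pass the test: the log2 difference of Col1a1 was 0.20 (SE 0.25, adjusted p = 0.658), and the SE of that of Col3a1 was 0.18 (adjusted p = 0.995).

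The neutrophil score, the mean log2 CPM of 10 neutrophil markers, had a median of -0.220 in females and 1.25 in males of the Dock2 line, and the summed level of these markers ran from 21.8 to 378.0 CPM in females and from 46.9 to 2608 CPM in males, with all 10 counted in both. The 7 smooth muscle markers summed to 4772 to 9990 CPM in females and 3337 to 12019 CPM in males, and 5 collagens were called with their score as a covariate. With the neutrophil score as a covariate 15 collagens were higher and 1 lower, 5 of the 7 calls remained, and Col9a2 (adjusted p = 0.103) and Col4a5 (adjusted p = 0.0542) were lost. Without the 5 samples with skin RNA, 7 were higher and 1 lower, and all 7 calls remained. The shares of all genes called in these refits are not given, so their counts have no background beside them.

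In the Nckap1l line 0 of 41 collagens were called between females and males, against 0.237% of all genes, and 11 had an unadjusted p under 0.05, against 16.7%. The smallest p values were those of Col23a1, at a log2 difference of 0.71 (SE 0.18, adjusted p = 0.0803), Col15a1, at 0.60 (SE 0.18, adjusted p = 0.133), and Col6a2, at 0.46 (SE 0.15, adjusted p = 0.15). The skin score had a median of 8.05 in the 12 females and 0.369 in the 19 males of this line, with summed levels of 5.21 to 6700 CPM and 5.47 to 8800 CPM and all 8 markers counted in both. Without samples with skin RNA the log2 differences of Col15a1 and Col6a2 turned to -0.15 and -0.10.

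Of the collagen partners, 4 of 49 were higher in Dock2 females and 0 lower, against 4.20% and 5.58% of all genes: Itga11 and Itga10, collagen-binding integrin chains, at log2 differences of 0.42 (SE 0.09, adjusted p = 0.00163) and 0.39 (SE 0.10, adjusted p = 0.0109), Plod2, a lysyl hydroxylase, at 0.41 (SE 0.12, adjusted p = 0.0235), and P3h2, a prolyl hydroxylase, at 0.28 (SE 0.09, adjusted p = 0.0426). None was called in the Nckap1l line.

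Whether the knockout difference itself depended on sex was tested by an interaction term. No collagen passed in the Nckap1l line (0 of 41, against 0% of all genes; 1 with an unadjusted p under 0.05, against 3.69%) or in the Dock2 line (0 of 40, against 0.315% of all genes; 2 with an unadjusted p under 0.05, against 4.73%). In the Nckap1l line the smallest p values were those of Col6a5, at an interaction of 2.36 (SE 0.76), Col4a2, at 0.85 (SE 0.43), and Col4a5, at -0.42 (SE 0.22). The interaction of Col6a5 includes the female knockout at 177.1 CPM and was not refitted without that sample alone. In the Dock2 line they were those of Col17a1 (3.19, SE 1.28), Col7a1 (2.12, SE 0.90) and Col6a6 (1.77, SE 0.90). Without samples with skin RNA those of Col17a1, Col7a1 and Col6a6 turned to -0.29, -0.16 and -1.03, and those of Col6a5 and Col4a2 in the Nckap1l line to -0.41 and -0.63.

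Wild types of the Dok3 line (21 mice, strain 129) were compared with wild types of the Gpsm3 line (20 mice, C57BL6/J), both on day 10. Strain, line, DSS percentage and run of sample numbers cannot be told apart here. Of the Dok3 wild types, 2 had sex markers that differed from the label. Of 39 collagens tested, 16 were higher in Dok3 wild types and 1 was lower, against 14.6% of all 17589 genes higher and 11.5% lower. The median log2 difference was 0.38 over the collagens and 0.005 over all genes. The calls were 8 of 10 fibrillar, 3 of 6 beaded-filament, 3 of 6 fibril-associated and 0 of 6 basement-membrane collagens tested, besides Col7a1, Col15a1 and the lower Col8a2.

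Col20a1 had a lowest, median and highest level of 7.93, 14.2 and 29.9 CPM in Dok3 wild types and of 4.71, 7.64 and 10.2 CPM in Gpsm3 wild types (log2 difference 0.93, SE 0.14, adjusted p = 7.72e-06). Col6a5 had 4.45, 19.0 and 34.8 CPM and 2.15, 7.17 and 26.1 CPM (1.14, SE 0.24, adjusted p = 6.75e-04). Col6a6 had 0.0829, 1.29 and 8.30 CPM and 0.000, 0.307 and 2.27 CPM (2.28, SE 0.46, adjusted p = 3.81e-04). The groups overlapped for each of these genes. Col22a1, a collagen of muscle-tendon junctions, differed by 0.93 (SE 0.22, adjusted p = 0.00182) and Col15a1 by 0.64 (SE 0.15, adjusted p = 0.00218).

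The fibrillar calls were Col5a3 (0.86), Col1a2 (0.81), Col5a2 (0.71), Col1a1 (0.98), Col5a1 (0.64), Col27a1 (0.36), Col3a1 (0.72) and Col11a2 (0.36), with adjusted p from 0.00962 for Col5a3 to 0.0413 for Col11a2. Col6a1 (0.40), Col16a1 (0.27) and Col7a1 (1.5) were higher as well, and Col8a2 (-0.71) was lower. Col1a1 had 283.0, 585.6 and 3312 CPM in Dok3 wild types and 207.9, 409.8 and 1843 CPM in Gpsm3 wild types, and these ranges overlapped over most of their length.

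Skin RNA was present in 5 of 21 Dok3 and 1 of 20 Gpsm3 wild types, with summed skin markers of 8.95 to 9577 CPM and 4.97 to 12776 CPM. The neutrophil score had medians of 0.810 and -0.204, with summed markers of 28.6 to 4888 CPM and 39.2 to 1126 CPM, and every marker of both lists was counted in both groups. Without samples with skin RNA 6 collagens were higher and 1 lower, and with the neutrophil score as a covariate 8 were higher and 0 lower. Col20a1, Col6a5, Col22a1, Col15a1 and Col7a1 were called in both of these fits, with Col7a1 at 0.85 without skin RNA, and no fibrillar collagen in both. Of the fibrillar chains, Col5a3 kept its call with the neutrophil score as a covariate (adjusted p = 0.00616), while Col1a1 (0.0789), Col3a1 (0.106) and Col5a1 (0.127) lost theirs, and without skin RNA all 8 lost theirs. Of 49 partners tested in the main fit, 20 were higher and 0 lower, against 14.6% and 11.5% of all genes. They were led by P4ha3 (0.86, SE 0.20, adjusted p = 0.00153), Ddr2 (0.36, SE 0.09, adjusted p = 0.00455) and Tgfb1 (0.60, SE 0.16, adjusted p = 0.00522). Partner counts without skin RNA or with the neutrophil score are not given, nor are the shares of all genes called in those fits.

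Samples of every line differed widely in neutrophil transcripts. The score ran from -0.721 to 7.00 in the Nckap1l line, from -1.07 to 7.39 in the Dock2 line, from -1.28 to 6.28 in the Gpsm3 line and from -1.37 to 8.42 in the Dok3 line. The slope of each gene on this score was fitted in each line, with genotype and, where present, sex as terms. A slope of 1 means a doubling of the gene for each doubling of the mean neutrophil marker level. Since treated and untreated mice are pooled, the slope spans both.

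In the Nckap1l line 19 of 41 collagens tested rose with the score and 3 fell, against 21.0% and 24.5% of all genes. Of 40 tested in the Dock2 line 22 rose and 3 fell, against 28.3% and 25.8%. In the Gpsm3 line 18 of 40 rose and 7 fell, against 27.0% and 25.8%. Of 40 tested in the Dok3 line 29 rose and 4 fell, against 33.0% and 28.7%. Median slopes over the collagens were 0.11, 0.11, 0.08 and 0.14 in the same order, and between -0.002 and 0.004 over all genes. Thus more of the members rose, and fewer fell, than of all genes in every line.

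Rises were called in all 4 lines for 15 collagens: Col1a1, Col1a2, Col3a1, Col5a1, Col5a2 and Col5a3 among the fibrillar, Col4a1 and Col4a2 in the basement membrane, Col6a1, Col6a2 and Col6a3 among beaded filaments, and Col8a1, Col12a1, Col15a1 and Col18a1. Col8a2 was called lower with the score in all 4. Another 14 collagens rose in 1 to 3 lines, and 6 others fell in at least 1 line. The 8 with no call in any line were Col2a1, Col11a2, Col4a4, Col6a5, Col9a1, Col19a1, Col10a1 and Col26a1. No collagen was called up in 1 line and down in another. The share of all genes that rose or fell in all 4 lines was not computed, so no background stands beside these counts over lines.

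**Figure D4:**
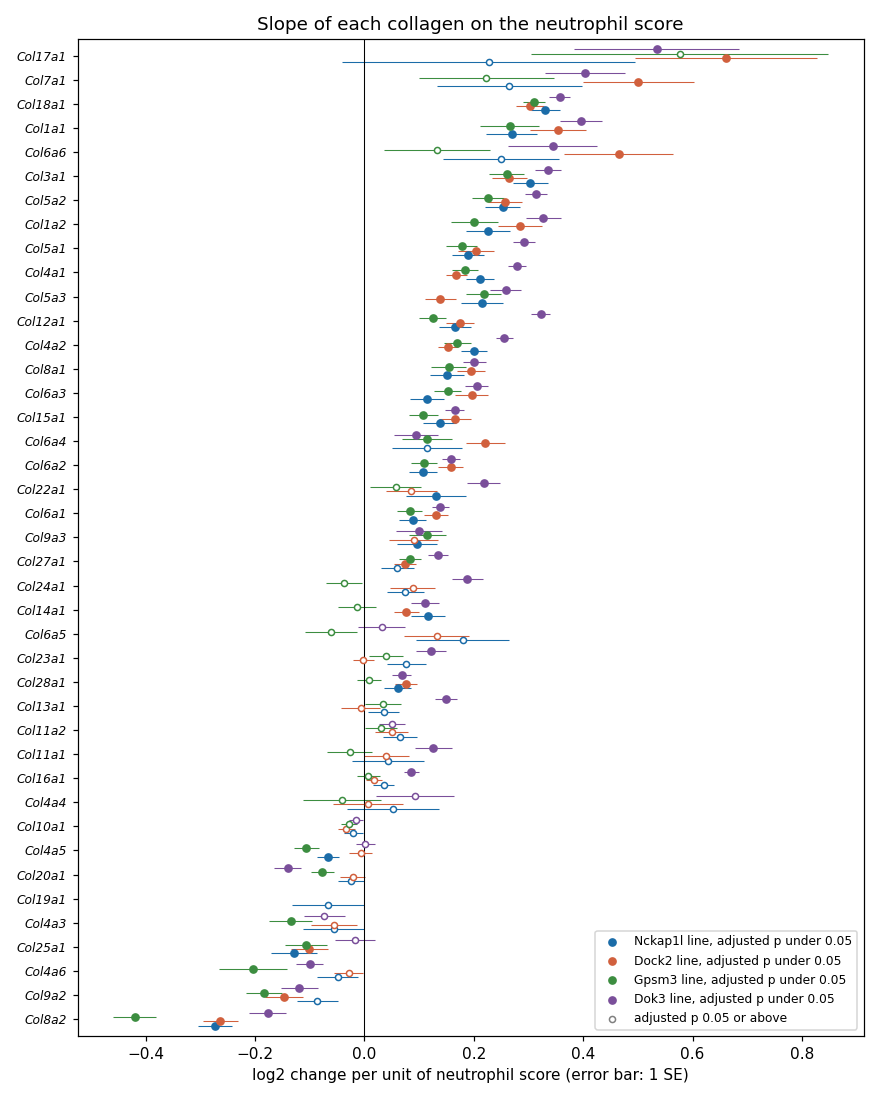
Slope of each of the 41 collagens tested on the neutrophil score (log2 change per unit of score) in the 4 lines, with error bars of 1 SE; filled points have an adjusted p under 0.05. Col18a1 lies between 0.30 and 0.36 in all lines, and Col8a2 lies below -0.17 in all lines.

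Col18a1, whose cleaved end is known as endostatin, had the smallest p of all collagens in each line, with slopes of 0.33 (SE 0.03, adjusted p = 5.64e-11) in the Nckap1l line, 0.30 (SE 0.03, adjusted p = 5.76e-13) in the Dock2 line, 0.31 (SE 0.02, adjusted p = 5.35e-16) in the Gpsm3 line and 0.36 (SE 0.02, adjusted p = 4.46e-21) in the Dok3 line. In the sample with the lowest score of the Nckap1l line it had 65.4 CPM and in that with the highest 278.9 CPM. In the Dock2 line the same pair of samples had 84.0 and 121.1 CPM, in the Gpsm3 line 58.0 and 254.2 CPM, and in the Dok3 line 28.8 and 504.4 CPM. The level was higher at the top of the score in every line, least so in the Dock2 line.

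Col3a1 had slopes of 0.30, 0.26, 0.26 and 0.33 in the Nckap1l, Dock2, Gpsm3 and Dok3 lines, and Col1a1 of 0.27, 0.35, 0.27 and 0.40. Both were among the largest slopes past the threshold in the Nckap1l line (SE 0.03 and 0.05, adjusted p = 9.27e-09 and 2.21e-05) and in the Gpsm3 line (SE 0.03 and 0.05, adjusted p = 1.51e-08 and 8.30e-05). In the sample with the highest score of the Dok3 line Col3a1 reached 10001 CPM and Col1a1 4671 CPM, against 642.5 and 138.4 CPM in that with the lowest score. In the Dock2 line the sample with the highest score had 502.4 CPM of Col1a1 and the one with the lowest 506.6 CPM, so the extreme samples of that line did not differ for it although the fitted slope passed the test.

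The basement-membrane chains divided. Col4a1 had slopes of 0.21, 0.17, 0.18 and 0.28 and Col4a2 of 0.20, 0.15, 0.17 and 0.26 in the same order of lines, all past the threshold. In the Dok3 line their adjusted p were 2.65e-20 and 6.88e-20, the next smallest after that of Col18a1. Col4a3, Col4a5 and Col4a6 were called lower with the score in at least 1 line: Col4a3 in the Gpsm3 line (-0.13), Col4a5 in the Nckap1l line (-0.07, SE 0.02, adjusted p = 0.00986) and the Gpsm3 line (-0.11), and Col4a6 in the Gpsm3 line (-0.20, SE 0.06, adjusted p = 0.00556) and the Dok3 line (-0.10). Col4a4 was called in none.

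The type VI chains Col6a1, Col6a2 and Col6a3 rose less steeply, with slopes from 0.083 to 0.205 over the 4 lines. Col12a1, a fibril coat, rose by 0.17, 0.18, 0.13 and 0.32, and Col8a1 by 0.15, 0.20, 0.15 and 0.20. Col10a1 had slopes of -0.02, -0.03, -0.03 and -0.01 with SE from 0.01 to 0.02 and was called in none.

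Col8a2 forms networks with Col8a1, and the slopes of these partners had opposite signs. For Col8a2 they were -0.27 (SE 0.03, adjusted p = 2.34e-08), -0.26 (SE 0.03, adjusted p = 7.98e-09), -0.42 (SE 0.04, adjusted p = 1.41e-11) and -0.18 (SE 0.03, adjusted p = 1.18e-05). In the samples with the lowest and the highest score it had 5.92 and 1.21 CPM in the Nckap1l line, 6.10 and 1.18 CPM in the Dock2 line and 6.33 and 1.96 CPM in the Gpsm3 line. The Dok3 line had 1.72 and 2.05 CPM, the other way round. Other falls among the largest within a line, besides those of Col4a5 and Col4a6 above, were those of Col25a1, a membrane collagen of neurons, in the Nckap1l line (-0.13, SE 0.04, adjusted p = 0.0140) and the Dock2 line (-0.10, SE 0.03, adjusted p = 0.0110), of Col9a2 in the Dock2 line (-0.15, SE 0.04, adjusted p = 4.43e-04), the Gpsm3 line (-0.18, SE 0.03, adjusted p = 1.50e-05) and the Dok3 line (-0.12, SE 0.03, adjusted p = 0.00259), and of Col20a1 in the Dok3 line (-0.14, SE 0.02, adjusted p = 5.13e-06).

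**Figure D5:**
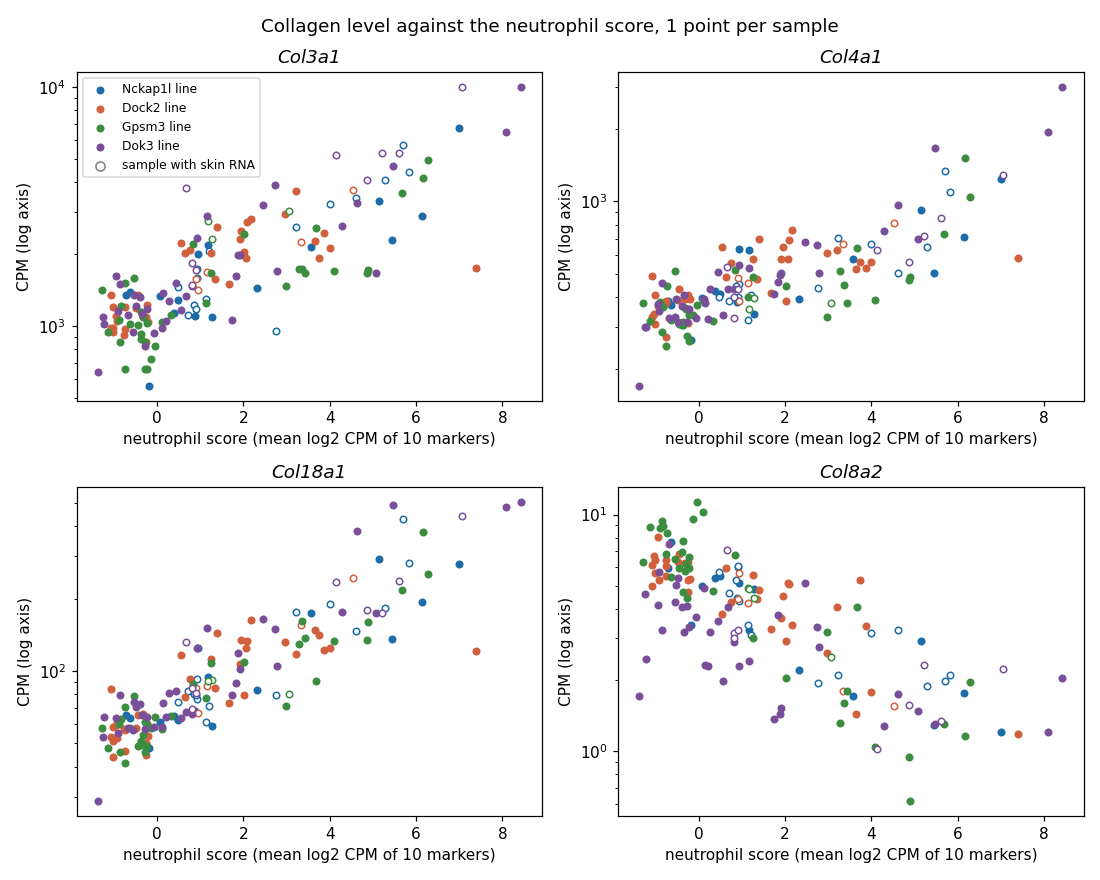
Level of Col3a1, Col4a1, Col18a1 and Col8a2 in CPM (log axis) against the neutrophil score (mean log2 CPM of 10 markers), with 1 point per sample, coloured by line; open points are the 32 samples with skin RNA. The first 3 genes rise with the score and Col8a2 falls.

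The steepest slopes past the threshold were those of Col17a1 and Col7a1, at 0.66 (SE 0.17, adjusted p = 9.55e-04) and 0.50 (SE 0.10, adjusted p = 7.92e-05) in the Dock2 line and 0.53 (SE 0.15, adjusted p = 0.00222) and 0.40 (SE 0.07, adjusted p = 6.84e-06) in the Dok3 line. In the Gpsm3 line that of Col17a1 was 0.58 (SE 0.27, adjusted p = 0.0713) and did not pass. Col6a6 came next in the Dock2 line at 0.46 (SE 0.10, adjusted p = 1.55e-04). These genes were high in samples with skin RNA, whose median neutrophil score was 1.24 against 0.466 in the others. Without those samples the slope of Col17a1 was -0.10 in the Nckap1l, Dock2 and Dok3 lines and -0.09 in the Gpsm3 line, with adjusted p of 0.0348, 5.59e-04, 0.00151 and 3.95e-04, so its direction turned. That of Col7a1 was 0.05 in the Dock2 line (adjusted p = 0.121) and 0.17 in the Dok3 line (adjusted p = 1.16e-07), and that of Col6a6 in the Dock2 line 0.15 (adjusted p = 0.169), so both genes lost their call in the Dock2 line.

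Without samples with skin RNA, 9 collagens rose in all 4 lines, all of them among the 15 above: Col1a1, Col1a2, Col3a1, Col5a1, Col5a2, Col5a3, Col4a1, Col4a2 and Col18a1. Col8a2, Col17a1 and Col4a3 fell in all 4. Only 16 samples of the Nckap1l line were left, where 9 collagens rose and 4 fell, and where Col6a1, Col6a2, Col6a3, Col12a1, Col8a1 and Col15a1 lost their call, as did the fall of Col25a1. The Dock2 line then had 21 that rose and 5 that fell, the Gpsm3 line 18 and 8, and the Dok3 line 26 and 6. With the run of sample numbers as a covariate 27 rose and 2 fell in the Nckap1l line, 18 and 7 in the Gpsm3 line and 30 and 4 in the Dok3 line. Shares of all genes, per line or over all 4 lines, are not given for these fits.

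The slopes of the Nckap1l line (day 12) and the Dock2 line (day 10) were compared in 1 fit, in which day, line and DSS percentage cannot be told apart. No collagen passed the test (0 of 41, against 3.93% of all 20187 genes), and none had an unadjusted p under 0.05, against 19.2% of all genes. DESeq2 and limma-voom called 0 as well. The smallest p values were those of Col23a1, at a difference of 0.08 (SE 0.04, adjusted p = 0.263), Col4a5, at -0.06 (SE 0.03, adjusted p = 0.290), and Col6a3, at -0.08 (SE 0.05, adjusted p = 0.319).

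The partners, which process and bind collagen, were fitted in the same way. Of those tested, 36 of 49 rose and 1 fell with the score in the Nckap1l line, 38 of 50 rose and 3 fell in the Dock2 line, 34 and 3 of 50 in the Gpsm3 line, and 43 and 1 of 50 in the Dok3 line. Over all genes 21.0%, 28.3%, 27.0% and 33.0% rose in the same order of lines. All 6 cross-linking enzymes rose in the Nckap1l, Dock2 and Dok3 lines and 5 of 6 in the Gpsm3 line. Lox, the lysyl oxidase that cross-links fibrils, had slopes of 0.46 (SE 0.04, adjusted p = 1.80e-09) in the Nckap1l line and 0.51 (SE 0.05, adjusted p = 5.89e-12) in the Dock2 line.

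Tgfb1, a growth factor that induces collagen synthesis, had slopes of 0.27 (SE 0.02, adjusted p = 2.05e-11) in the Nckap1l line and 0.23 (SE 0.02, adjusted p = 1.75e-14) in the Dock2 line. It is also made by leukocytes, and its source was not measured. Adamts3, which trims procollagen, had 0.28 in the Nckap1l line, Itga2, a collagen receptor, 0.21 in the Dock2 line, and the hydroxylating enzymes Plod3 and P4hb 0.11 and 0.12 in the Gpsm3 line beside Loxl2 at 0.22. In the Dok3 line Loxl2 (0.33), the proteoglycan Bgn (0.24) and P3h1 (0.22) had the smallest p. Partners that fell were Ddr1, a collagen receptor of epithelium, in the Nckap1l (-0.03) and Dok3 (-0.03) lines, Tll2, Itga1 and Colgalt2 in the Dock2 line (-0.27, -0.05 and -0.10), and Colgalt2, Tll2 and Fmod in the Gpsm3 line (-0.14, -0.33 and -0.16). The slope differed between the Nckap1l and Dock2 lines for 2 of the 50 partners, Ddr1 and Itga1, a share near the 3.93% of all genes.

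Chains of 1 molecule were compared by the correlation of their log2 CPM over the samples of a line, for 10 pairs in 4 lines. Each p came from 100000 permutations, two-sided, with Benjamini-Hochberg adjustment over the 40 correlations, and the smallest p they can give is 1e-05. Col1a1 and Col1a2 had Pearson r of 0.984, 0.992, 0.994 and 0.997 in the Nckap1l (n = 31), Dock2 (n = 42), Gpsm3 (n = 40) and Dok3 (n = 47) lines, with Spearman rho from 0.972 to 0.995. The head-to-head pair Col4a1 and Col4a2 had r of 0.991, 0.979, 0.982 and 0.990 and rho from 0.961 to 0.975. Col5a1 and Col5a2 had r from 0.942 to 0.988, and Col6a1 and Col6a2 from 0.978 to 0.988. Each of these had adjusted permutation p of 1.18e-05 for r and 1.29e-05 for rho. Leaving out the 2 samples farthest from the median of the first gene left r of these pairs between 0.935 and 0.996, and within runs of sample numbers r lay between 0.952 and 0.997.

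Of the other pairs, Col6a1 and Col6a3 had r from 0.844 to 0.955, Col1a1 and Col3a1, which share fibrils, from 0.947 to 0.982, and Col1a1 and Col4a1, from different classes, from 0.698 to 0.929. The head-to-head pairs Col4a3 and Col4a4 (71 bases between their starts on chromosome 1) and Col4a5 and Col4a6 (1308 bases on chromosome X) had r from 0.615 to 0.759 and from 0.642 to 0.712, with rho from 0.479 to 0.763 and from 0.479 to 0.706. Head-to-head position was shared by a pair that correlated at 0.979 or more and by pairs at 0.759 or less. These pairs also differ in level and in the distance between starts, and an effect of position on r was not tested.

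Without samples with skin RNA, r of Col4a3 and Col4a4 was 0.072, 0.354, 0.560 and 0.226 in the Nckap1l, Dock2, Gpsm3 and Dok3 lines, with adjusted permutation p of 0.791, 0.0354, 3.03e-04 and 0.175, so in the Nckap1l and Dok3 lines the relation rested on samples with skin RNA. Within the last run of the Nckap1l line (8 samples) it was -0.206. Both genes have low counts, which limits r, and Col4a3 shares 5.65% of its exon bases with another gene.

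Col1a1 and Col17a1, made by fibroblasts and by epithelium, fell into separate sets by skin RNA, so no pooled r is given. In samples without skin RNA r was -0.439 (n = 16), -0.472 (n = 37), -0.380 (n = 37) and -0.665 (n = 38) in the Nckap1l, Dock2, Gpsm3 and Dok3 lines, with adjusted permutation p of 0.0996, 0.00358, 0.0232 and 1.38e-05 and rho of -0.515, -0.506, -0.323 and -0.640. Leaving out the 2 samples farthest from the median of Col1a1 gave r of -0.636, -0.543, -0.354 and -0.639. In the 15 samples with skin RNA of the Nckap1l line r was 0.421 (adjusted permutation p = 0.116). Correlated genes share library, depth and tissue makeup, and the share of these in r was not measured.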

How the data were processed

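Colon RNA of 160 mice had been depleted of ribosomal RNA and sequenced. Per the submitters' processing notes and the study's methods, reads were aligned to mm10 with STAR and counted per gene with featureCounts of Subread, and the deposited values are raw counts for 39179 Ensembl genes in every sample, not normalized. The library kit kept strand, but whether counting used it is not given in the sources used here, so antisense partners cannot be told apart. Tool versions were not given.

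Genes were named with a GENCODE annotation of GRCm38, which matched 37693 genes holding 99.67% of counts. Of the collagens, 10 share exon bases with another gene, 6.07% at most. Groups came from titles and characteristics of the labels. The members and lists were chosen with earlier results of these data known.

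Counts were tested with edgeR 4.0.16 (R 4.3.3): TMM factors, filterByExpr with each design (so the number of genes tested differs), quasi-likelihood test, Benjamini-Hochberg over all genes tested, threshold 0.05. Slopes left out the neutrophil markers. Intervals are log2 ± 1.96 SE, and SE was taken from the F statistic. log2 CPM used a prior count of 2. The main fit of each comparison, but none of the alternatives, was run on simulated counts. These were drawn without skin RNA or a mix of treated and untreated mice. P-values of the fits rest on the spread between mice around the fitted terms. That spread includes DSS treatment, since treated and untreated mice were not separated. Those of the correlations come from permuting the samples of a line.

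Named were collagens called between genotypes, sexes, strains or in interactions, the 3 with the smallest p in each comparison, the 3 largest and 3 smallest slopes past the threshold, the 3 highest per class, and the pairs. Col6a5 in the runs of sample numbers, Col10a1, Col12a1 and other slopes outside that rule were added after their values were seen. Partners were named where past the threshold between genotypes or sexes, and for slopes the 3 smallest p in each direction; the 3 smallest p between strains were added.

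Alternatives planned were limma-voom (limma 3.58.1), which the study's methods name, DESeq2 1.42.0, its size factors, 2 other filters on low counts, run of sample numbers, muscle score, sex, score and extreme samples. Skin RNA, sex markers, libraries under 8000000 counts, the neutrophil covariate and leaving out 1 library were chosen after seeing the data. Shares over all genes are given for the main fits only, so counts of the alternatives have none beside them.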

Additional observations from a re-analysis of the deposited data

Results flagged for a closer look

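Col6a5 in knockouts of the first run of sample numbers of the Nckap1l line held a sample far from the others, at 177.1 CPM against 18.8 CPM for the next of 6, and in wild types of the same run the highest of 8 had 8.27 CPM against 4.21 CPM for the next. Of 5 groups of 4 to 10 samples looked at, these 2 met Dixon's rule for an outlying value. Only Col6a5 in this line was looked at, and it was chosen after its values were seen, so no rate by chance can be set beside this.

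The slope on the neutrophil score differed between the Nckap1l and Dock2 lines, by the test of the difference, for 2 collagen receptors: Itga1 (difference 0.084, SE 0.024, adjusted p = 0.0327 by edgeR) and Ddr1 (-0.074, SE 0.016, adjusted p = 0.00324). These are 2 of 50 partners tested, a share near the 3.93% of all genes called in this comparison, and no collagen passed the test.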

How the results depend on the processing

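Of 158 counts of called collagens recomputed under other settings, 143 stayed within 1.5 times the count given above. Between Nckap1l knockouts and wild types 1 collagen, Col6a5, was called with DESeq2, with no filter beyond 1 count, with a mean of at least 10 counts, and with the smooth muscle or the skin score as a covariate. Between Nckap1l females and males 1, Col23a1, was called with DESeq2 and with the smooth muscle or the neutrophil score as a covariate. Between Dock2 females and males 16 were called with the neutrophil score and 11 with the skin score as a covariate, against 7. Between Dok3 and Gpsm3 wild types 8 were called with the neutrophil score, 7 with the skin score and 7 without samples with skin RNA, against 17. The Nckap1l slope had 13 calls without samples with skin RNA, against 22, and the slope difference 1 (Col23a1) with the smooth muscle score. With that score the Gpsm3 slopes were 24 up and 2 down, against 18 and 7.

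Of single values recomputed under other settings, 72 lost their call and 10 gained one. Another 20, given below, turned direction. Col6a6 in Dock2 knockouts was -0.053 by limma-voom. Without samples with skin RNA, Col15a1 and Col6a2 between Nckap1l sexes were -0.152 and -0.104, and the Nckap1l interactions of Col4a2 and Col6a5 -0.625 and -0.412. The Dock2 interactions were, without these samples and with the skin score, -0.293 and -0.297 for Col17a1, -1.03 and -0.452 for Col6a6 and -0.164 and -0.163 for Col7a1. The slope of Col17a1 was -0.104 and -0.106 in the Dock2 line and -0.104 and -0.136 in the Dok3 line. The correlation of Col4a3 with Col4a4 was -0.206 in 1 run of the Nckap1l line, and that of Col1a1 with Col17a1 without skin RNA -0.439, -0.472, -0.380 and -0.665. The causes were not tested. No paired analysis was possible because the labels give no shared replicate numbers. Collagens near 0 counts were limited by depth: 3 to 6 of the 44 were not tested between genotypes.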
